A study of Mus musculus with 12 samples.

Results

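The genes described here encode the cytosolic ribosomal proteins, the protein subunits of the ribosomes that translate nuclear-encoded mRNAs. Members were the probes whose gene symbol has the form Rpl or Rps followed by a number, together with Rpsa, Rplp0, Rplp1 and Rplp2, and the Rps6k kinases were left out. The rule took 92 of the 45281 array probes, for 62 genes, and used no measured value. Mouse hippocampus-derived HT-22 cells, immortalized with the SV40 T antigen, were treated in serum-free medium for 4 h. The 4 groups were 30 nM T3 (triiodothyronine, the active thyroid hormone) plus 100 nM CORT (corticosterone, the rodent glucocorticoid), 100 nM CORT alone, 30 nM T3 alone, and vehicle. All groups received 0.03% DMSO and 0.001% ethanol after growth in serum stripped of thyroid and steroid hormones, and each group had 3 replicate arrays. The study asked how the hormones act on transcripts alone and together. All groups are a single immortalized line.

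The 12 arrays shared 1 distribution of normalized signals, from 40 to 43898, so a signal is relative to the other transcripts of its array. The limit of detection used here, 78.9, was the 95th percentile of the signals of 1276 olfactory receptor probes. The treatments were checked first with Klf9, a target of both hormones, whose log2 fold changes were 2.46 on T3+CORT, 1.12 on CORT and 1.62 on T3 (SE 0.09 each). The labels call the cells hippocampal neurons. Of 15 neuronal markers on the arrays 6 were tested, and Nefl, Nefm, Rbfox3 and Snap25 were below the limit on every array. Apart from Eno2, with a mean signal of 154.3, the tested ones had mean signals of 76.4 to 87.6, near the limit. Of 14 glial and immune markers 7 were tested, with Gfap below the limit on every array, and of 14 fibroblast and mesenchymal markers 13 were tested. The summed signal of the 15 neuronal markers was 1101 to 1160 on T3+CORT, 1108 to 1117 on CORT, 1127 to 1172 on T3 and 1078 to 1148 on vehicle. For the glial and immune markers it was 2008 to 2101 on T3+CORT, below the other groups. It was 2219 to 2471 on CORT, 2209 to 2417 on T3 and 2215 to 2303 on vehicle. On T3+CORT against vehicle 5 of the 7 tested had a positive log2 fold change and 2 a negative one, with a median of 0.04. Slc1a3 fell (log2 fold change -0.38, SE 0.09) and Aldh1l1 rose (0.37, SE 0.08). The lower sum is thus not shared by most of the list. For the fibroblast and mesenchymal markers the sum was 32444 to 34575 on T3+CORT and 37484 to 38805 on CORT, the latter above vehicle. It was 34268 to 38144 on T3 and 33612 to 36452 on vehicle. On CORT against vehicle 5 of the 13 tested had a positive log2 fold change and 8 a negative one, with a median of -0.09. The higher sum is thus not shared by most of the list. The part of these cell type markers in the ribosomal protein values was not tested.

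A mammalian ribosome has a small subunit, which holds the mRNA and reads its codons, and a large subunit, which joins amino acids and carries the acidic stalk that recruits elongation factors. Ribosomal protein genes are among the most highly expressed genes of growing cells, and their products are made in matched amounts. Most of their mRNAs begin with a run of pyrimidines, the 5′ terminal oligopyrimidine (TOP) tract, through which mTORC1 and the RNA-binding protein Larp1 control their translation. An array measures the amount of an mRNA and does not measure that translational control.

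The RefSeq promoter table (mouse build GRCm38.p6) matched 51 of the 62 member genes, with 61 annotated start sites. The match of members skipped a chromosome, which the count of all promoters did not. Of these windows 9, or 14.8%, had a C at the annotated start followed by at least 4 bases that were each C or T, against 2.51% of all 32851 promoters in the table. A tract of that kind beginning within 10 bases of the annotated start was found in 57.4% of member windows and 30.7% of all promoters. These shares describe the annotation, in which a start can lie some bases away from the start used in HT-22 cells. The following windows hold 15 bases before the annotated start and 15 bases from it onward. Capitals mark the longest such tract that begins within 10 bases of the start, counted from at most 10 bases before it, where it has at least 5 bases. Rps6, Rpl35 and Rpl28 are shown because their tracts run across the start, and the other members, Rps27l at the first of its annotated starts, because they passed the test in a comparison below.
Rps6, chr4:86857353-86857382, minus strand: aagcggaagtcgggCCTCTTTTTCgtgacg
Rpl35, chr2:39005117-39005146, minus strand: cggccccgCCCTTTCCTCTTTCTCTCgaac
Rpl28, chr7:4792950-4792979, plus strand: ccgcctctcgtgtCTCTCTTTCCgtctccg
Rpl7a, chr2:26910792-26910821, plus strand: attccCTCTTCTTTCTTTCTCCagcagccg
Rpl24, chr16:55966260-55966289, plus strand: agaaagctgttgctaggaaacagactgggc
Rpl27, chr11:101442230-101442259, plus strand: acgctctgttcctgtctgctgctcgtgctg
Rpl36a, chrX:134585639-134585668, plus strand: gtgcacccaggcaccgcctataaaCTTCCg
Rps3a1, chr3:86142654-86142683, minus strand: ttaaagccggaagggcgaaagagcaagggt
Rps2, chr17:24720048-24720077, plus strand: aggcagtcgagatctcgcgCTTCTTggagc
Rps27l, chr9:66946071-66946100, plus strand: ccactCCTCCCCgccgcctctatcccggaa

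The 300-base windows, 250 bases before to 50 after each start, were also searched on both strands for 4 short motifs. The core of the ETS factor site, CGGAAG, was found in 62.3% of member windows and in 16.9% of all promoters. A TATA box, TATAAA, was found in 9.84% of member windows and 13.6% of all promoters. The glucocorticoid response element half-site AGAACA was found in 11.5% of member windows and 19% of all promoters, and the thyroid hormone response element half-site AGGTCA in 9.84% and 16.3%. A match is a description of letters and not of a bound site. Rpl29, which also passed the test in a comparison below, is not among the matched genes.

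Of the 62 genes 57 had a probe at or above the limit of detection on at least 3 arrays, with 82 tested probes in all, and each gene entered with its brightest tested probe. They were 22 small subunit genes and 35 large subunit and stalk genes, of which 4 are paralogs of another ribosomal protein gene (Rps27l, Rpl7l1, Rpl22l1 and Rpl39l). No probe of Rps20, Rps23, Rps4l, Rpl3l or Rpl17 was tested, because none reached the limit on 3 arrays. Rps27, Rps27a, Rpl5, Rpl7, Rpl10, Rpl10l and Rpl11 have no probe under the rule and are not analysed here. Ribosomal protein genes have many processed copies in the genome, and a probe cannot tell an mRNA from a near-identical copy, so each value is that of the probe. The median of the 57 mean signals was 27590. The signal of Rplp1, a stalk protein, was 43898, the top value of the distribution, on 10 of the 12 arrays. It was 41358 on T3+CORT replicate 3 and 39077 on CORT replicate 3, and no rise could have been measured at that ceiling. At the other end, Rpl6 had a mean signal near the limit, with 70.3 to 85.6 on T3+CORT, 70.6 to 79 on CORT, 77.4 to 86.7 on T3 and 81.8 to 90.5 on vehicle. The probes of Rpl14 and Rpsa (also known as the laminin receptor) reached at most 112.7 and 118.9 on any array, so little can be read from these 3 genes.

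The median of the set lay near 0 on every array, while single genes moved both ways. The median over the 57 genes of the log2 signal minus the vehicle mean lay between -0.04 and 0.00 on the 3 T3+CORT arrays, between -0.04 and 0.03 on the CORT arrays, between -0.05 and -0.00 on the T3 arrays and between -0.01 and 0.02 on the vehicle arrays. The medians of all 4 groups overlapped. The SD of these values over the genes was 0.18 to 0.25 on T3+CORT, 0.18 to 0.20 on CORT, 0.12 to 0.16 on T3 and 0.05 to 0.08 on vehicle, where it is smaller by construction because the vehicle mean was subtracted.

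**Figure D1:**
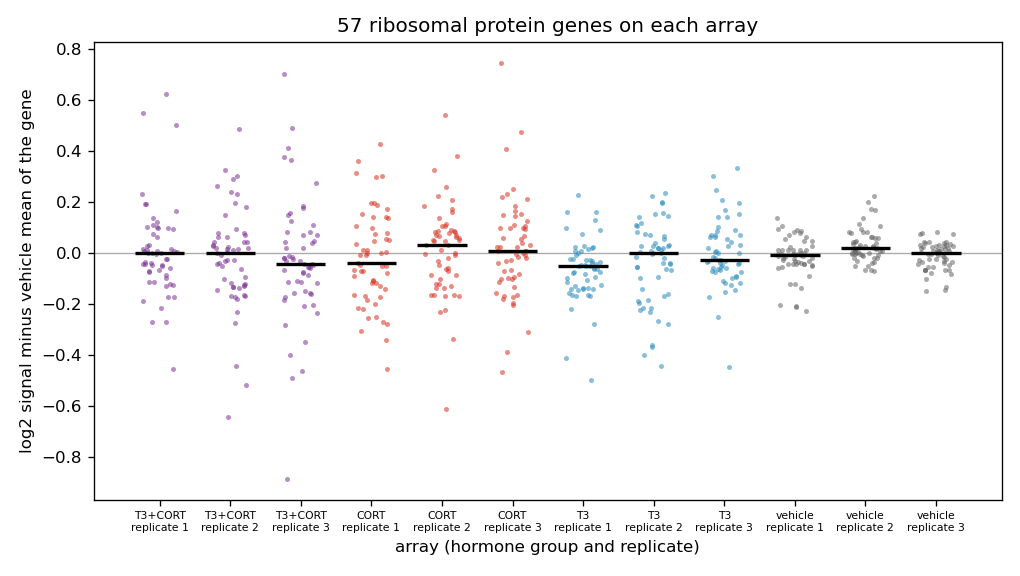
Log2 signal of each of the 57 tested ribosomal protein genes minus that gene's mean over the vehicle arrays (vertical axis) on each of the 12 arrays (horizontal axis), with 1 point per gene and a black bar at the median of the array. The medians lie between -0.05 and 0.03 in all groups, while single genes lie further out, Rpl7a lowest on T3+CORT replicate 3. Vehicle points spread less because their own mean was subtracted.

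CORT alone changed 4 of the 57 genes after 4 h, all of the large subunit in the fit used here. Rpl29 and Rpl36a rose and Rpl7a and Rpl24 fell (limma, Benjamini-Hochberg adjusted p under 0.05 over 20516 tested probes). The count of 4 was 2 without CORT replicate 3 and 10 without T3 replicate 2, 11 with array weights or with only the CORT and vehicle arrays, and 0 by the methods' t-test, so the shares that follow hold for the fit used here. That test, with unequal variances, is named in the study's methods for synergy and was applied here to each comparison. Under other settings small subunit genes passed on CORT, namely Rps2 and Rps3 with array weights and Rps3 and Rps3a1 with only the CORT and vehicle arrays. The rise of Rpl29 is that of its brighter probe, which a second probe did not share, and without Rpl29 1 gene, Rpl36a, rose. The share that rose was 3.51%, against 8.37% of all tested probes, and the share that fell was 3.51%, against 9.06%. The median log2 fold change was 0.01 over the members and -0.01 over all tested probes. None of the 22 small subunit genes passed, with 5 of them, or 22.7%, at an unadjusted p under 0.05. That share was 26.3% of the 57 genes and 30.5% of all tested probes. For 54 of the 57 genes the 95% interval of the CORT change lay within 1.5-fold in either direction, as it did for 90.6% of all tested probes, and the exceptions were Rpl29, Rpl7a and Rps3a1. In RNA from a whole culture, a change in the number of cells that carry a transcript and a change in its amount per cell cannot be told apart. The labels do not say which arrays shared a slide, so a slide effect on these comparisons was not tested. The methods say that treatments were done in triplicate, and neither they nor the labels call the replicates separate cultures, so the p values measure the spread between these arrays.

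T3 and CORT together changed 6 of the 57 genes. The count was 10 with the lowest tested probe of each gene and 0 by the methods' t-test. At the study's thresholds with the limma p it was 1, where 412 of all 20516 tested probes passed. Of the 6 genes, Rpl36a and Rps3a1 rose and Rpl7a, Rpl27, Rpl24 and Rps27l fell. The share that rose was 3.51%, against 8.61% of all tested probes, and the share that fell was 7.02%, against 8.98%. The median log2 fold change was -0.03 over the members and -0.01 over all tested probes. The fall of Rps27l had an adjusted p of 0.0485 and was lost under 12 of 23 alternative settings, where its adjusted p reached 0.292, so it stands at the threshold. Both comparisons use the same 3 vehicle arrays.

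**Figure D2:**
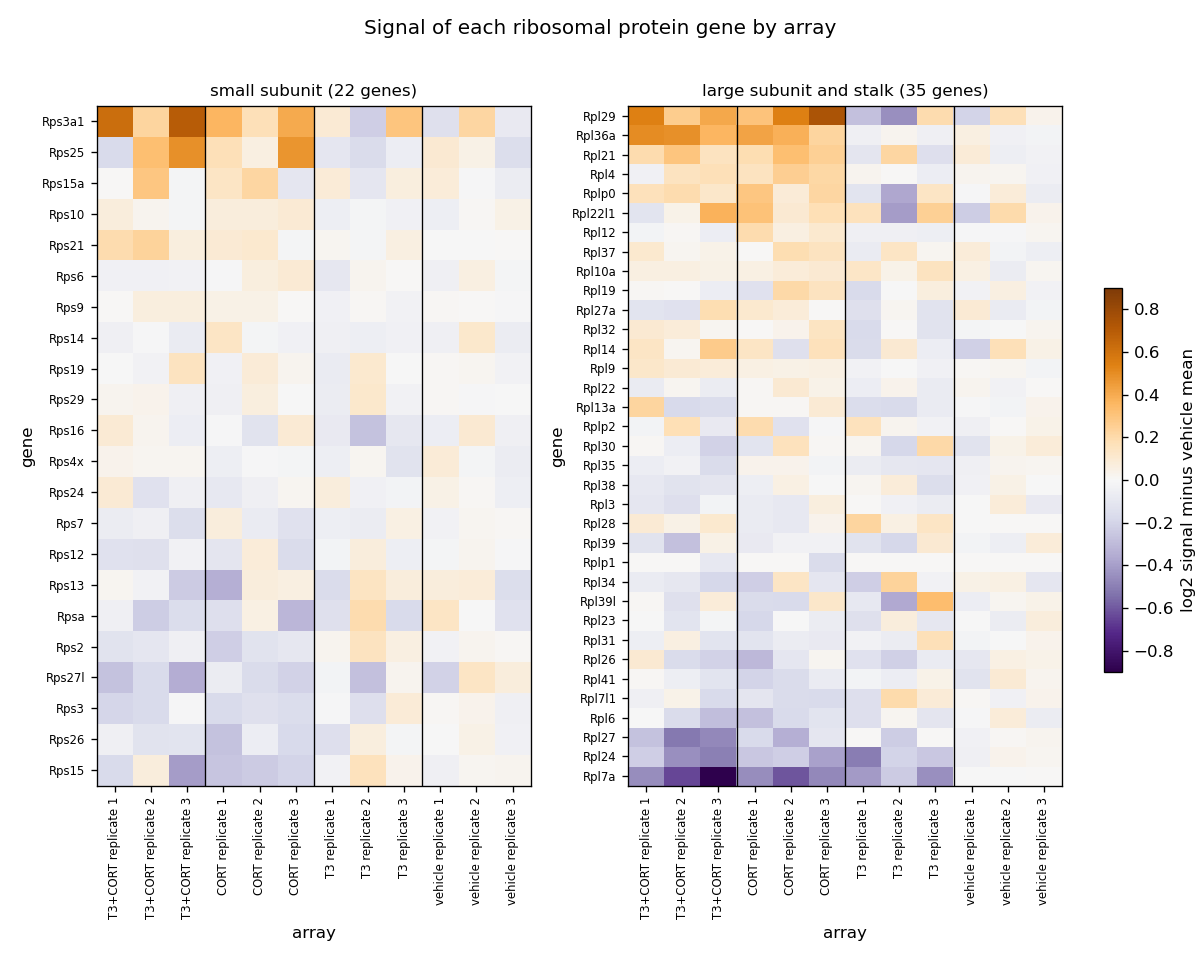
Log2 signal minus the gene's vehicle mean (colour, orange above and purple below) for the 22 small subunit genes at left and the 35 large subunit and stalk genes at right, in rows ordered by their CORT change, on the 12 arrays in columns. The strong colours are confined to a few rows, with Rps3a1, Rpl29 and Rpl36a orange on the T3+CORT and CORT arrays and Rpl7a and Rpl24 purple on all hormone arrays, and most rows stay pale.

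Among the genes that fell, Rpl7a encodes a large subunit protein, and its introns carry small nucleolar RNAs. Its signal was 10403, 9130 and 7708 on T3+CORT, 10403, 9330 and 10312 on CORT, 10692, 12125 and 10443 on T3, and 14195, 14250 and 14310 on vehicle. All 9 hormone arrays lay below all 3 vehicle arrays, which were close together. The log2 fold change was -0.66 ± 0.09 (SE) on T3+CORT (adjusted p 8.75e-05) and -0.51 ± 0.09 on CORT (adjusted p 0.00082). On T3 alone it was -0.37 ± 0.09, with an adjusted p of 0.252, which did not pass.

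Rpl24, which sits at a bridge between the subunits and carries the mutation of the Belly spot and tail mouse, had a similar pattern. Its signal was 16917, 14450 and 13985 on T3+CORT, 16525, 16861 and 15025 on CORT, 13916, 17165 and 16525 on T3, and 19048, 20081 and 19922 on vehicle. Again all hormone arrays were below all vehicle arrays, and the hormone groups overlapped one another. It fell by 0.39 ± 0.08 on T3+CORT (adjusted p 0.00391) and by 0.29 ± 0.08 on CORT (adjusted p 0.023), while the T3 value of -0.32 ± 0.08 did not pass (adjusted p 0.394). The CORT call was lost without CORT replicate 3 and without vehicle replicate 2 or 3, with a log2 fold change between -0.32 and -0.24 over all alternatives.

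Rpl27, a large subunit protein mutated in some human patients with Diamond-Blackfan anemia, had 29775, 25117 and 26038 on T3+CORT, 31849, 28412 and 33535 on CORT, 36082, 30742 and 36082 on T3, and 35038, 36265 and 36551 on vehicle. The T3+CORT arrays were below every T3 and vehicle array and overlapped the CORT arrays. It fell by 0.42 ± 0.08 on T3+CORT (adjusted p 0.00119) and, against T3, by 0.35 ± 0.08 (adjusted p 0.0045), and its CORT value of -0.20 ± 0.08 did not pass (adjusted p 0.0757). The CORT value passed with the replicate number as a block (adjusted p 0.0419), with array weights (0.022), with only the CORT and vehicle arrays (0.0185) and without T3 replicate 2 (0.0295). Rps27l, a p53-induced paralog of the small subunit protein Rps27, had 16189, 17335 and 15359 on T3+CORT, 18666, 17451 and 16949 on CORT, 19253, 16132 and 19922 on T3, and 16917, 21504 and 20578 on vehicle. Its T3+CORT and vehicle arrays overlapped.

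Among the genes that rose, Rpl36a encodes a large subunit protein near the exit site for tRNA. Its signal was 20295, 20081 and 18455 on T3+CORT, 19253, 18666 and 16801 on CORT, 13862, 14592 and 13916 on T3, and 14967, 13985 and 14075 on vehicle. All 6 arrays with CORT were above all 6 arrays without it. Its log2 fold change was 0.45 ± 0.07 on T3+CORT (adjusted p 0.00016) and 0.35 ± 0.07 on CORT (adjusted p 0.00148), against -0.02 ± 0.07 on T3.

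Rpl29, a large subunit protein also known to bind heparan sulfate, had 9729, 7980 and 8848 on T3+CORT, 8216, 9694 and 11150 on CORT, 5493, 4892 and 7627 on T3, and 5783, 7487 and 6823 on vehicle. All 6 arrays with CORT were above all 6 without it, with wide spread within groups. It rose by 0.53 ± 0.14 on CORT (adjusted p 0.0134), and its T3+CORT value of 0.41 ± 0.14 missed the threshold (adjusted p 0.0508). That value passed under 10 of the alternatives, with an adjusted p of 0.0285 with the replicate number as a block and 0.0113 without T3 replicate 2. The CORT call was lost without CORT replicate 3 and without vehicle replicate 1. A second and dim probe of Rpl29 read the other way, with 180.5, 197.7 and 148 on T3+CORT, 171.4, 176.1 and 167.1 on CORT, 203.4, 244.9 and 211.7 on T3, and 211.8, 211.5 and 185.3 on vehicle.

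Rps3a1, a small subunit protein beside the path by which mRNA leaves the ribosome, had 7648, 5822 and 8071 on T3+CORT, 6381, 5602 and 6583 on CORT, 5310, 4271 and 6122 on T3, and 4514, 5795 and 4689 on vehicle. The T3+CORT arrays were above the vehicle arrays, by a small margin between T3+CORT replicate 2 and vehicle replicate 2. It rose by 0.52 ± 0.13 on T3+CORT (adjusted p 0.011), a call that was lost without T3+CORT replicate 1 or 3 and without vehicle replicate 1 or 3. Its CORT value of 0.31 ± 0.13 did not pass (adjusted p 0.111), and passed without T3 replicate 2 (0.0342) and with only the CORT and vehicle arrays (0.0118).

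**Figure D3:**
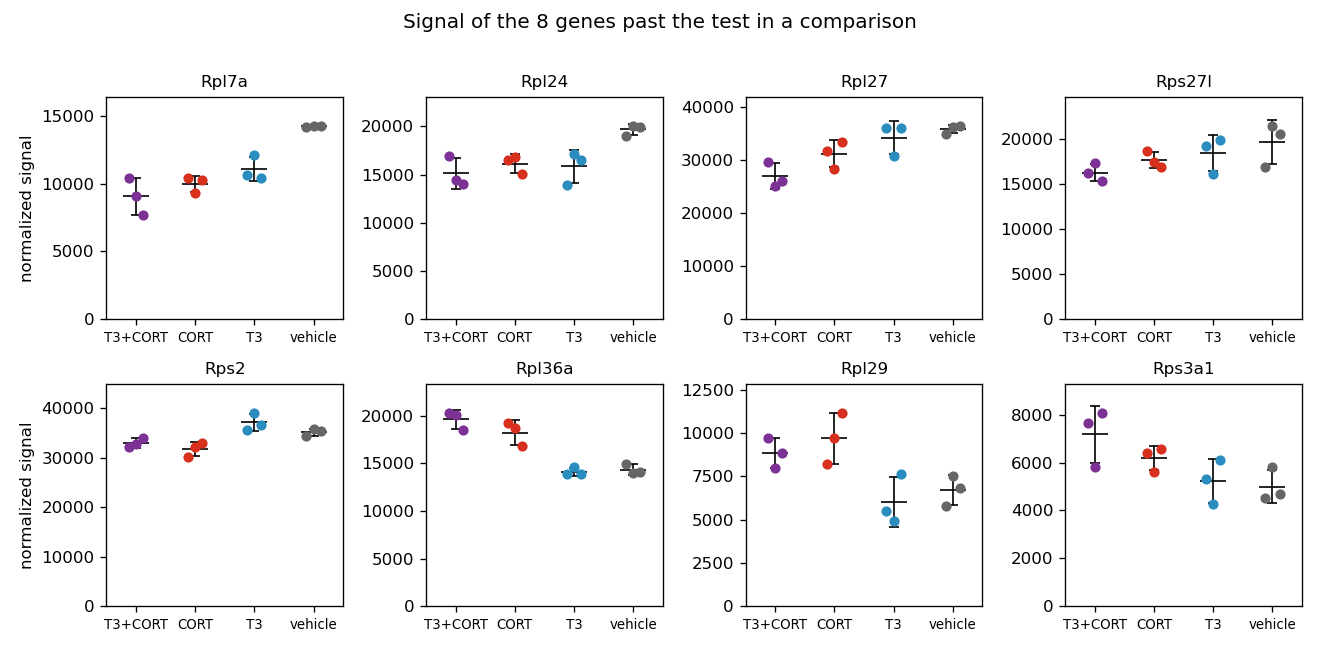
Normalized signal (vertical axis, from 0) of the 8 genes past the test in at least 1 comparison, by group (horizontal axis), with 1 point per array and a bar at the mean ± SD of 3 arrays. Rpl7a and Rpl24 lie below vehicle in all 3 hormone groups, and Rpl36a and Rpl29 (its brighter probe) lie above vehicle only where CORT was given.

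T3 changed no ribosomal protein gene past the test. Called genes were 0 of 57 on T3 against vehicle, where 0.078% of all tested probes were called, with 3 members (5.26%, against 5.43% of all tested probes) at an unadjusted p under 0.05 by limma and 4 by the methods' t-test. The 3 were Rpl7a, Rpl24 and Rpl28, and the median over the members was -0.02, against -0.00 over all tested probes. With CORT present, T3+CORT against CORT also called 0 of 57, where 0.468% of all tested probes were called, with 3 members (5.26%, against 8.24% of all tested probes) at an unadjusted p under 0.05 by limma and 2 by the t-test. The interaction of T3 and CORT called 0 of 57, where 0.0877% of all tested probes were called, and no member had an unadjusted p under 0.05, against 6.04% of all tested probes. The 95% interval lay within 1.5-fold for all 57 genes in each of these 3 contrasts, as it did for 99.2%, 98.9% and 92.6% of all tested probes in the order given.

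The CORT change was measured again in the presence of T3, by T3+CORT against T3, a comparison that shares no array with CORT against vehicle. There Rpl29, Rpl36a and Rps3a1 rose, 5.26% of the 57 against 9.29% of all tested probes, and Rpl7a, Rpl27 and Rps2 fell, 5.26% against 9.77%. The log2 fold changes were 0.58 ± 0.14 for Rpl29 (adjusted p 0.00708), 0.47 ± 0.07 for Rpl36a (adjusted p 9.14e-05) and 0.46 ± 0.13 for Rps3a1 (adjusted p 0.0211). Rpl7a fell by 0.30 ± 0.09 (adjusted p 0.0278). Rps2, a small subunit protein at the mRNA entry channel, had 32266, 32733 and 34075 on T3+CORT and 35717, 39077 and 36674 on T3. The T3+CORT arrays were below the T3 arrays, and its log2 fold change was -0.17 ± 0.05 (adjusted p 0.0375). A second probe of Rps2 gave -0.08 ± 0.05, which did not pass.

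Rpl29, Rpl36a and Rpl7a were called in the same direction in both CORT comparisons by their brightest probes. Rpl24, the other gene called on CORT against vehicle, was not called against T3, where its T3+CORT and T3 arrays overlapped. Over the 57 genes 46 had the same sign in both, and the 2 sets of log2 fold changes correlated with r = 0.86 (n = 57 genes, which are not independent replicates). Without Rpl29, Rpl36a and Rpl7a r was 0.80. For 86 other tested probes as bright as the member median or brighter, r was 0.81 and 67 had the same sign, so the likeness of the 2 measurements is also seen in bright probes of other genes.

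**Figure D4:**
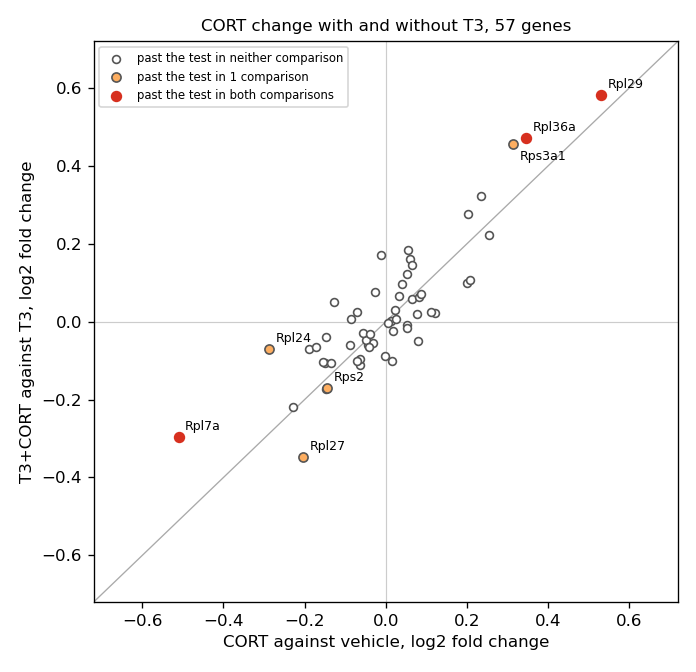
Log2 fold change on CORT without T3 (horizontal axis, CORT against vehicle) and with T3 (vertical axis, T3+CORT against T3) for the 57 genes, with the diagonal as a line and filled points for genes past the test in 1 or both comparisons. Rpl29, Rpl36a and Rpl7a are called in both, most other genes lie near the origin, and the correlation is 0.86.

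The calls were also counted by the brightness of the probe, with a split at a mean signal of 20000 that was chosen after the data were seen. Of the 35 genes at or above it none was called on CORT, and the SD of their log2 fold changes was 0.09, against 22.5% called and an SD of 0.22 for 142 other probes in that range. Of the 15 genes from 2000 to 20000, 4, or 26.7%, were called on CORT and the SD was 0.27, close to the 29.2% and 0.27 of other probes in the same range. Of the 7 genes under 2000 none was called, against 16.2% of other probes under 2000. On T3+CORT 1 of the 35, Rpl27, was called, against 17.6% of other probes at or above 20000, and 5 of the 15, or 33.3%, against 31.5% of other probes from 2000 to 20000. None of the 7 was called on T3+CORT, against 16.1%. These differences were not tested. The share called depended on brightness in other genes too. Of the 86 other probes as bright as the member median or brighter, 12.8% were called on CORT with an SD of 0.13, and 8.14% on T3+CORT. The part of probe brightness in the ribosomal protein values was not tested.

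**Figure D5:**
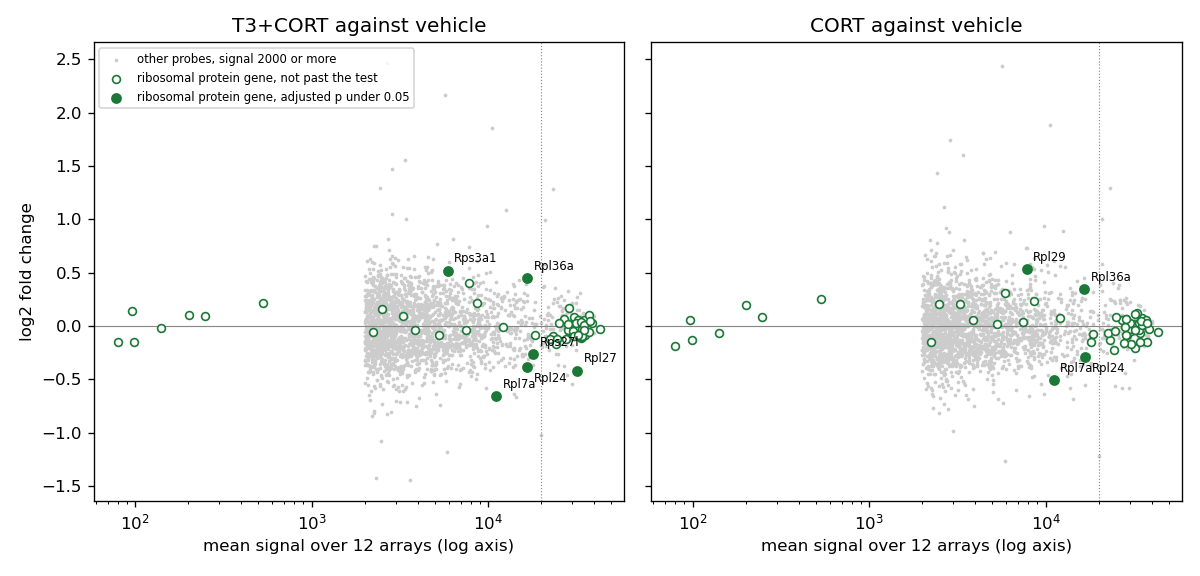
Log2 fold change (vertical axis) against the mean signal over 12 arrays (horizontal log axis) for T3+CORT against vehicle at left and CORT against vehicle at right. Green circles are the 57 ribosomal protein genes, filled and named where past the test, grey points are other probes with a mean signal of 2000 or more, and the dotted line marks 20000. The ribosomal protein genes above 20000 sit close to 0 apart from Rpl27 at left, while grey points there reach 1.28 at left and 1.30 at right.

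The core of each subunit is best described by its interval. Rps6, the small subunit protein phosphorylated by the S6 kinases, had 33962, 33962 and 34189 on T3+CORT, 34714, 36674 and 37310 on CORT, 32733, 35563 and 35038 on T3, and 33877, 36468 and 34578 on vehicle. The vehicle arrays overlapped those of every hormone group, while the T3+CORT arrays were all below the CORT arrays. The 95% interval of its log2 fold change was -0.15 to 0.07 on T3+CORT and -0.06 to 0.16 on CORT. Rps14, on the platform of the small subunit, had intervals of -0.17 to 0.09 on T3+CORT and -0.10 to 0.16 on CORT. The values of Rps19, the first gene found mutated in Diamond-Blackfan anemia, were 0.04 ± 0.06 on T3+CORT and 0.02 ± 0.06 on CORT. Rps4x, encoded on the X chromosome, had 0.02 ± 0.05 and -0.03 ± 0.05 in the same order. Rps3, at the mRNA entry channel, had -0.12 ± 0.06 and -0.16 ± 0.06, neither past the test. The CORT value passed with array weights (adjusted p 0.0411) and with only the CORT and vehicle arrays (0.0399). Rps25, which some viral mRNAs need for initiation, varied from 7109 to 11234 on T3+CORT, from 8336 to 11134 on CORT, from 7156 to 7669 on T3 and from 7231 to 8612 on vehicle. With values of 0.21 ± 0.13 on T3+CORT and 0.23 ± 0.13 on CORT it did not pass, and the first was 0.41 and passed without T3+CORT replicate 1 (adjusted p 0.0216).

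In the large subunit, Rpl3 lies at the peptidyl transferase centre and had -0.09 ± 0.06 on T3+CORT and -0.03 ± 0.06 on CORT. Rpl23 and Rpl26, which can bind the p53 regulator Mdm2, had -0.05 ± 0.07 and -0.09 ± 0.09 on T3+CORT, and -0.09 ± 0.07 and -0.13 ± 0.09 on CORT. Rpl13a, known in human cells for silencing inflammatory mRNAs when released from the ribosome, had 8960, 6730 and 6833 on T3+CORT and 7683, 7683 and 8162 on CORT, against 7582, 7515 and 7797 on vehicle. T3+CORT replicate 1 was the highest of these arrays and the other T3+CORT arrays were the lowest, and neither comparison passed. Rpl38, needed in mouse embryos for translation of Hox mRNAs, had -0.11 ± 0.06 on T3+CORT and -0.00 ± 0.06 on CORT. Rpl39, a short protein of the exit tunnel, had -0.12 ± 0.08 and -0.05 ± 0.08. Of the stalk proteins, Rplp2 had 0.03 ± 0.08 on T3+CORT and 0.02 ± 0.08 on CORT. Rplp0, the base of the stalk and a common reference gene, had 2669, 2724 and 2592 on T3+CORT, 2920, 2532 and 2771 on CORT, 2197, 1842 and 2621 on T3, and 2360, 2512 and 2274 on vehicle. All 6 arrays with CORT were above all vehicle arrays, and the log2 fold changes of 0.16 ± 0.10 and 0.20 ± 0.10 did not pass the test (adjusted p 0.31 and 0.196).

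Paralogs of ribosomal proteins, some of which replace the main protein in certain tissues, gave no call other than that of Rps27l. Rpl22 had 0.05 ± 0.07 on CORT, and its paralog Rpl22l1 had 0.20 ± 0.15. Rpl22l1 spanned 174.7 to 245.5 on T3+CORT, 203.4 to 234.7 on CORT, 143.2 to 224.3 on T3 and 161.2 to 217.1 on vehicle, and the groups overlapped. Rpl39l, known as a testis form in the mouse, had -0.07 ± 0.13 on CORT, and Rpl7l1 had -0.15 ± 0.09. Rpl36al, a paralog of Rpl36a outside the symbol rule, fell on CORT by 0.27 ± 0.09 (adjusted p 0.0405) and on T3+CORT by 0.29 ± 0.09 (adjusted p 0.0302), so that the 2 nearly identical proteins had mRNA probes with opposite changes.

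For 18 genes more than 1 probe was tested, and in 11 of them the probes disagreed in sign on CORT. In none were probes called in opposite directions on CORT. Over all 82 tested probes 3 rose and 3 fell on CORT, 3.66% each against 8.37% and 9.06% of all tested probes. On T3+CORT 4 rose and 7 fell, 4.88% and 8.54% against 8.61% and 8.98%. The calls that the brightest probes did not make came from second probes. On CORT the dim probe of Rplp0 rose by 0.35 ± 0.10 (adjusted p 0.0248) and that of Rps13 fell by 0.37 ± 0.10 (adjusted p 0.0203). On T3+CORT the same probes gave 0.40 ± 0.10 and -0.36 ± 0.10, a dim probe of Rps24 fell by 0.33 ± 0.10 and a bright one of Rpl23 fell by 0.20 ± 0.07. The remaining call was that of a dim Rpl27a probe, higher on T3+CORT, whose signals of 79.2 to 106.8 over all arrays lie so near the limit of 78.9 that little can be read from it. Against T3, the dim Rpl29 probe fell by 0.33 ± 0.11 (adjusted p 0.0359) where the bright Rpl29 probe rose, so the rises given for Rpl29 are those of the bright probe and the gene has no settled direction.

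Replicates of the members were close. The median SD within groups was 0.08 on the log2 scale over the 57 genes, 0.07 over other probes as bright and 0.11 over all tested probes. The most variable members were Rpl22l1 (SD 0.25), Rpl29 (0.23), Rps3a1 (0.22), Rps25 (0.21) and Rpl39l (0.20). The least variable were Rpl9 (0.02), Rps9 (0.03), Rps10 (0.03), Rpl12 (0.04) and Rpl35 (0.04). Rpl9 had 39481, 38754 and 38447 on T3+CORT, 37710, 37465 and 37710 on CORT, 35515, 36194 and 35432 on T3, and 36551, 36674 and 35717 on vehicle. The arrays with CORT were all above those without it, yet its differences of 0.10 ± 0.05 on T3+CORT and 0.05 ± 0.05 on CORT did not pass the test.

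Genes that act with ribosomal proteins were counted from lists, as descriptions with no set test. Of 29 tested genes on a list of translation factors and genes with TOP mRNAs, 6 rose and 0 fell on CORT. Whether each listed gene has a TOP tract was not checked. The largest rises were those of Eif3d (0.57 ± 0.11) and Eef2 (0.44 ± 0.13), which drives translocation of the ribosome, followed by Eif4b, Eif3h and Eif3i. The share that rose on CORT was 20.7%, against 8.37% of all tested probes, where 9.06% fell, and the median of the list was 0.03. On T3+CORT 5 rose and 1, Btf3, fell, which is 17.2% and 3.45%, against 8.61% and 8.98%.

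Of 69 ribosome biogenesis factors 10 rose and 4 fell on CORT. The same counts were found on T3+CORT, in part for other genes. Pes1 and Imp4, called on CORT, were not called on T3+CORT, where Bop1 rose and Nop10 fell. The shares of 14.5% and 5.8% compare with 8.37% and 9.06% of all tested probes on CORT, and with 8.61% and 8.98% on T3+CORT. On CORT the largest rises were Nop14 (0.91 ± 0.11), which takes part in 18S rRNA processing, Pes1 (0.61 ± 0.10), a large subunit assembly factor, Heatr1 (0.49 ± 0.10), Rrp1 and Gar1, and the falls were Polr1d (-0.31 ± 0.07), a subunit shared by RNA polymerases I and III, Nip7, Imp4 and Brix1. Of 14 genes of S6 kinase and mTORC1 signalling 4 rose on CORT, or 28.6% against 8.37% of all tested probes, and 3 fell, or 21.4% against 9.06%. The rises were Eif4ebp1 (0.52 ± 0.07), a repressor of cap-dependent initiation, Tsc2 (0.42 ± 0.09), an inhibitor of mTORC1, and Mlst8 (0.39 ± 0.09) and Rptor (0.34 ± 0.11), which are subunits of mTORC1 itself. The falls were Larp4 (-0.43 ± 0.09), Larp1 (-0.33 ± 0.10) and Rheb (-0.27 ± 0.08), an activator of mTORC1. On T3+CORT 4 genes of this list rose and 2 fell, or 28.6% and 14.3%, against 8.61% and 8.98% of all tested probes. Rptor and Rheb were not called there, while Eif4e rose (0.35 ± 0.11). Mitochondrial ribosomal proteins, which serve a separate ribosome, had 5 rises and 6 falls among 73 genes on CORT, led by Mrpl2 (0.65 ± 0.11) and Mrpl48 (-0.40 ± 0.08). On T3+CORT they had 7 rises and 9 falls, or 21.9% called against 17.6% of all tested probes. Their share called on CORT was 15.1%, against 7.02% of the cytosolic ribosomal protein genes and 17.4% of all tested probes, and the differences were not tested.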

How the data were processed

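RNA of 12 HT-22 samples was hybridized to Illumina mouse WG-6 v2.0 bead arrays. The intensity values were deposited by the authors as linear normalized signals. The methods name rank invariant normalization in BeadStudio (version not given in the sources used here). At every rank the signals of the 12 arrays differed by at most 0.5, a likeness that quantile normalization gives by design. Which normalization the deposited values had was not settled here. Background subtraction was not seen in them. A further table of 12 arrays, with 24 columns that match no sample label, was not used, so the planned limit from detection p values was replaced by olfactory receptor probes, at the 95th percentile and, as the stricter limit, the 99th (92.6).

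A linear model of the log2 intensities, with a term for each of the 4 groups, was built in limma (3.58.1, R 4.3.3), with an intensity trend in eBayes and 8 degrees of freedom left for the spread. The 20516 probes at or above the limit on at least 3 of 12 arrays were tested, two-sided, with Benjamini-Hochberg adjustment over all of them. The 95% interval of a log2 fold change extended by a median of 0.19 above and below it, and precision is limited by 3 arrays a group. The probe annotation gives 1 symbol to 34885 probes, several to 18 and none to 10378. A gene enters with its brightest tested probe. Named are members past the test (at most 10 rises and 10 falls in a comparison), a fixed set of well-known members, the 5 most and 5 least variable ones, and at most 5 rises and 5 falls of each other list. The members and lists were chosen with earlier results of these data known. Alternatives were other background corrections, normalizations, filters, probe rules, spread models, tests and thresholds, and leaving out each array. Of these, quantile normalization could change little, because the arrays already shared 1 distribution. The fit was tested on simulated data. Promoter windows were read from RefSeq, and figures were drawn with matplotlib 3.10.9. Protein sequences were not used here.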

Additional observations from a re-analysis of the deposited data

How the results depend on the processing

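Medians of the 57 genes moved by less than the replicate spread under the alternatives, except that of the interaction, which ranged from -0.00079 without vehicle replicate 2 to 0.032 without CORT replicate 2. The counts of called members depended more on the test. On CORT the count of 4 became 11 with array weights and 11 when arrays of the other groups were left out. It ranged from 2 without CORT replicate 3 to 10 without T3 replicate 2, the array with the lowest median correlation with the others (0.987). On T3+CORT the count of 6 became 10 with the lowest tested probe of each gene, and against T3 the count of 6 became 3 when they were left out. T3 alone had 1 call with array weights. The methods' t-test after adjustment called 0 members in each comparison with CORT, where it called 148 of all tested probes on CORT, 118 on T3+CORT and 4 against T3, and at an unadjusted p under 0.05 it took 13, 11 and 4 members. At the study's thresholds, an unadjusted p under 0.02 and 1.5-fold, 1 member, Rpl7a, passed on T3+CORT by the limma p and 0 by the t-test. On CORT 0 members passed, and against T3 0 passed. Of all 20516 tested probes, 412 passed on T3+CORT by the limma p, 426 on CORT and 463 against T3. Apart from the t-test, the CORT calls of Rpl7a and Rpl36a and the T3+CORT calls of these and of Rpl24 and Rpl27 kept their side of the threshold under every alternative run on single genes.

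Same-numbered arrays showed no clear common deviation (median r 0.05, from -0.24 to 0.42 over 18 pairs). For the 36 other pairs the median r was -0.01, from -0.37 to 0.36. With 3 arrays a group, this check cannot settle whether the numbers pair the arrays. With the replicate block the counts were 5 on CORT, 6 on T3+CORT and 6 against T3, with 0 in the other contrasts. Slide as a block was not run, since no array is tied to a slide.

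Of the 66 fold changes of 33 named members, 15 that had not passed changed sign in 23 of 1518 alternative values, none larger than 0.07 with an adjusted p of 0.621 or more, and no called value did. With array weights, Rplp2 was -0.014 and Rps14 -0.0085 on CORT. Leaving out single arrays gave these ranges on CORT: Rpl35 from -0.0094 to 0.032, Rplp2 from -0.070 to 0.093, Rps4x from -0.060 to 0.017, Rpl3 from -0.081 to 0.0090, Rpl38 from -0.030 to 0.023, Rps14 from -0.031 to 0.083 and Rps19 from -0.0075 to 0.055. On T3+CORT it gave Rpl22l1 from -0.037 to 0.21, Rps10 from -0.00015 to 0.048, Rps14 from -0.078 to 0.014, Rpl39l from -0.064 to 0.045, Rps4x from -0.010 to 0.066, Rpl13a from -0.17 to 0.036, Rplp2 from -0.051 to 0.078 and Rps19 from -0.016 to 0.076.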
